A study of Mus musculus with 10 samples.

Results

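The genes followed here are 10 genes of adult skeletal muscle, read in libraries made from osteocytes, the cells embedded in bone matrix. They were picked by symbol as a set of muscle genes, at a time when earlier results of these data were known, and are Acta1, Ckm, Myh1, Myh2, Myh4, Tnnt3, Mylpf, Ttn, Mb and Atp2a1, 10 of the 22548 genes in the deposited table. All 10 had enough counts in these libraries to be tested. The libraries came from male C57BL/6 mice aged 8 weeks, 5 in the No MM group, which received no myeloma cells, and 5 in the MM group, whose femurs were injected with Vk12598 cells, a transplantable line from the Vk*MYC mouse model of multiple myeloma. Vk12598 is 1 myeloma line, and every MM mouse carried it. Osteocytes were the cells recovered from pieces of femur after the marrow was removed and the bone was digested with collagenase and EDTA in rounds, and each mouse gave 1 library. The question of the design was how gene expression in osteocytes differs when myeloma grows in the same bone. The question asked of these 10 genes is how much skeletal muscle RNA the libraries carried, how evenly, and whether its amount differed between MM and No MM mice.

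Skeletal muscle fibres contract when myosin heavy chains in the thick filament pull on actin in the thin filament, and calcium acting through the troponin complex opens the binding sites on actin. Fibres are classed as slow or fast by the myosin heavy chain they make: Myh7 in slow type I fibres, and Myh2, Myh1 and Myh4 in the fast types IIa, IIx and IIb. Muscle attaches to the outer surface of the femur and to its tendons, whereas osteocytes are known for Dmp1 and for Sost, which encodes sclerostin, an inhibitor of bone formation.

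Total counts lay between 31099174 and 39466332 per library, so that 3 counts correspond to between 0.0760 and 0.0965 CPM before scaling, CPM being the counts of a gene set against the total of its library. Libraries No MM 3 and No MM 4 stood apart by their immunoglobulin genes, which took 26.6% and 29.0% of their counts against 0.637 to 3.86% in the other 8 libraries. In CPM scaled between libraries by the trimmed mean of M values (TMM), the plasma cell transcript Igkv4-91 was at 72626 in No MM 3 and 90371 in No MM 4, and at most 1064 in the rest. MM 6 stood apart within its group for most of the 10 muscle genes, as described below. Where leaving out No MM 3 and No MM 4, or MM 6, turned a direction, the value without them is given beside it.

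The 3 fast myosin heavy chains lie side by side on chromosome 11 and have similar coding sequences, so the same 60-base stretch of coding sequence is shown for each of them and for slow Myh7, from GRCm38 with GENCODE M21 annotation, written 5′ to 3′ along the transcript. The stretch lies at chr11:67254460-67254519 (plus strand, exon 28) for Myh4, chr11:67217466-67217525 (plus strand, exon 29) for Myh1, chr11:67191350-67191409 (plus strand, exon 28) for Myh2 and chr14:54978640-54978699 (minus strand, exon 30) for Myh7. Capitals mark bases that differ from Myh4.
Myh4: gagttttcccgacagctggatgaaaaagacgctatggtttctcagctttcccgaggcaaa
Myh1: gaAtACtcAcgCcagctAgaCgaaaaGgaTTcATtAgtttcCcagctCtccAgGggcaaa
Myh2: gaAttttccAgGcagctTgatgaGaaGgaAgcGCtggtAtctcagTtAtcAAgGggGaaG
Myh7: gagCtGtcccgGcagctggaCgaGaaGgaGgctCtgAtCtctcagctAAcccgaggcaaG
The stretch was picked as the one, within 1 exon of each gene, where the fast chains differ from each other at most positions. There Myh1 and Myh2 each differed from Myh4 at 17 bases and Myh7 at 13, so it does not rank the chains by likeness. Over the whole coding sequence Myh1 and Myh2 were 91.1% identical, Myh1 and Myh4 90.1%, and Myh2 and Myh4 88.1%. Myh7 was less like the fast chains, at 77.1% with Myh1 and 77.5% with Myh2 and with Myh4. Of the 76-base windows of the Myh1 coding sequence, the length of 1 read, 12.9% occurred letter for letter in Myh2 and 4.92% in Myh4, and none of the Myh7 windows occurred in a fast chain. How reads shared by several genes were counted is not given in the sources used here, so the split of counts among Myh1, Myh2 and Myh4 is less certain than their sum. Acta1 was 86.3% identical to cardiac Actc1 and 85.4% to smooth muscle Acta2 in coding sequence, with no 76-base window in common.

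The 250 bases before the RefSeq start are shown for 3 of the genes whose levels moved together from library to library (GRCm38.p6, 5′ to 3′ toward the gene). They are Acta1 at chr8:123894776-123895025 (minus strand), Myh1 at chr11:67199852-67200101 (plus strand) and Myh4 at chr11:67237562-67237811 (plus strand). Capitals mark 4 motifs searched on both strands: the E-box CAGCTG, which myogenic factors bind, the MEF2 box, the CArG box of serum response factor, and TATAAA, which in Myh1 and Myh4 also lies inside the MEF2 box.
Acta1: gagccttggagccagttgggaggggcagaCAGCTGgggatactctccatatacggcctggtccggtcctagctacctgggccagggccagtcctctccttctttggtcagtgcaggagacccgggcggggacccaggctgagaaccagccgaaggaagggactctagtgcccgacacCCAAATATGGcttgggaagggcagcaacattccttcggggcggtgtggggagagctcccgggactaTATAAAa
Myh1: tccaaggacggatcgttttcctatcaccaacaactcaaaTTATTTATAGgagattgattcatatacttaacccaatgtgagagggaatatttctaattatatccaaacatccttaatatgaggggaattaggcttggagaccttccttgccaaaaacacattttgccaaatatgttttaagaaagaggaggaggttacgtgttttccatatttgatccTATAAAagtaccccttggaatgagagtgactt
Myh4: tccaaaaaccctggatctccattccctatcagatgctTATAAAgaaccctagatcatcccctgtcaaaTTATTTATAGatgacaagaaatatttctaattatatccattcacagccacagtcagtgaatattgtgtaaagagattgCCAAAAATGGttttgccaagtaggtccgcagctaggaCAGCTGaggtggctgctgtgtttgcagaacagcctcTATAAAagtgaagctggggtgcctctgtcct
Promoter windows were found for 9 of the 10 genes, that is, for all except Tnnt3. CAGCTG was present in 5 of these 9 (Acta1, Atp2a1, Ckm, Myh4 and Mylpf) and in 13.0% of all 32851 promoter windows of the same length. The MEF2 box was present in 3 (Myh1, Myh4 and Ttn) and in 2.92% of all windows, the CArG box in 2 (Acta1 and Myh4) and in 1.47%, and TATAAA in 3 (Acta1, Myh1 and Myh4) and in 12.4%. These are matches of letters and do not show that a factor was bound.

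All 10 muscle genes were detected in every library. Together they took between 0.0771 and 0.759% of a library's counts, which were 0.473, 0.759, 0.333, 0.150 and 0.0954% in No MM 1 to 5 and 0.742, 0.109, 0.113, 0.243 and 0.0771% in MM 6 to 10. Counting error was small beside these differences, with a 95% Wilson interval of 0.756 to 0.762% for No MM 2. The share of muscle counts thus varied nearly as widely within each group as over the 10 libraries. Per kilobase of transcript, as TMM-scaled CPM per kb, the order of mean levels over the 10 libraries was Tnnt3 at 487, Mylpf at 429, Acta1 at 421, Ckm at 258, Mb at 181, Atp2a1 at 99.5, Myh4 at 56.4, Myh1 at 34.4, Myh2 at 15.6 and Ttn at 1.35. Fast troponin T, the fast regulatory light chain and skeletal actin were therefore at like levels, and titin, the longest transcript, was lowest. Mylpf was above Acta1 in 6 of 10 libraries, and their log2 ratio per kb was 0.04 ± 0.30 (SD, n = 10), so these neighbours did not differ beyond their spread. The mean log2 ratio was also within its SD for Tnnt3 over Mylpf (0.28 ± 0.35) and Ckm over Mb (0.56 ± 0.60), though the first gene was the higher one in 9 of 10 libraries for both pairs. Mb exceeded Atp2a1 in 9 of 10 libraries (0.81 ± 0.52). Acta1 exceeded Ckm, Atp2a1 exceeded Myh4, Myh4 exceeded Myh1, Myh1 exceeded Myh2 and Myh2 exceeded Ttn in 10 of 10 libraries each.

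Set beside the genes of the cells the libraries are named for, Acta1, among the highest of the muscle genes per kb, was not a minor transcript. The other muscle genes were not set against them. Acta1 was higher per kb than Dmp1 in 7 of 10 libraries and higher than Sost in 8, with median ratios of 2.43 and 2.90. The ratio of Acta1 to Dmp1 ran from 0.319 to 11.3 between libraries. Dmp1 was at 112 to 789 CPM in No MM and 164 to 885 CPM in MM, so the osteocyte marker was present in every library.

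Skeletal actin, the thin filament of the sarcomere, was measured by Acta1 (ENSMUSG00000031972, chr8:123891767-123894736, minus strand). Its levels in No MM 1 to 5 were 1443, 1349, 739.7, 390.1 and 131 CPM, and in MM 6 to 10 they were 1159, 216, 182, 344 and 83.9 CPM. No MM 1, No MM 2 and MM 6 were the 3 highest libraries and MM 10 the lowest, a 17.2-fold range, and the groups overlapped. With 5 mice in each group, the mean and SD were 810.3 ± 577 CPM for No MM and 397 ± 436 CPM for MM.

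The fast myosin heavy chains are the motor proteins of the thick filament. Myh4 (ENSMUSG00000057003, chr11:67238029-67260446, plus strand), the type IIb chain, was at 411, 842, 529, 225 and 148 CPM in No MM 1 to 5 and at 603, 112, 143, 273 and 106 CPM in MM 6 to 10. Myh1 (ENSMUSG00000056328, chr11:67200052-67224575, plus strand), the type IIx chain, was at 297, 649, 181, 124 and 46.9 CPM in No MM and at 497, 47.3, 58.3, 137 and 52.7 CPM in MM. Myh2 (ENSMUSG00000033196, chr11:67171027-67197517, plus strand), the type IIa chain, was at 147, 243, 90.9, 68.6 and 10.6 CPM in No MM and at 235, 36.0, 28.7, 68.0 and 19.1 CPM in MM. For all 3 chains No MM 2 was highest and MM 6 the next highest, and Myh2 had the widest range between libraries of the 10 genes, 23.0-fold.

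Mylpf (ENSMUSG00000030672, chr7:127211608-127214298, plus strand) encodes the regulatory light chain of fast myosin, and Tnnt3 (ENSMUSG00000061723, chr7:142498836-142516009, plus strand) encodes fast troponin T, which anchors the troponin complex on the thin filament. Mylpf was at 851, 755, 346, 185 and 89.3 CPM in No MM 1 to 5 and at 625.5, 80.9, 106, 181 and 66.5 CPM in MM 6 to 10. Tnnt3 was at 793, 1221, 781, 324 and 153 CPM in No MM and at 1153, 144, 170.2, 388 and 127 CPM in MM. Both genes were low in MM 7, MM 8 and MM 10 and in No MM 5. Ttn (ENSMUSG00000051747, chr2:76703980-76982547, minus strand) encodes titin, the elastic protein that spans the sarcomere from Z disc to M line, and did not follow the same order. It was at 51.1, 264, 240.5, 264 and 42.2 CPM in No MM and at 292, 59.0, 51.3, 128 and 45.6 CPM in MM, so No MM 1, which was highest for Acta1, was among the low libraries for Ttn.

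The remaining 3 genes serve energy supply and calcium handling. Ckm (ENSMUSG00000030399, chr7:19411094-19421583, plus strand), the muscle creatine kinase that regenerates ATP, was at 783, 745, 605, 206 and 107 CPM in No MM 1 to 5 and at 697, 87.1, 104, 243 and 74.6 CPM in MM 6 to 10. Mb (ENSMUSG00000018893, chr15:77015489-77050670, minus strand), myoglobin, the oxygen store of muscle, was at 319, 536, 157, 81.4 and 37.9 CPM in No MM and at 511, 91.6, 58.8, 161 and 44.0 CPM in MM. Atp2a1 (ENSMUSG00000030730, chr7:126445858-126463108, minus strand), the SERCA1 pump that returns calcium to the sarcoplasmic reticulum, was at 504, 831, 572, 217 and 89.8 CPM in No MM and at 760.4, 104, 111, 208 and 64.9 CPM in MM. MM 6 lay with the high No MM libraries for each of the 3, and No MM 5 with the low MM libraries. Over all 10 genes, No MM 2 and MM 6 were among the 4 highest libraries for 10 of 10 genes and No MM 1 and No MM 3 for 9 each, while the lowest library was MM 10 for 6 genes and No MM 5 for 4.

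**Figure D1:**
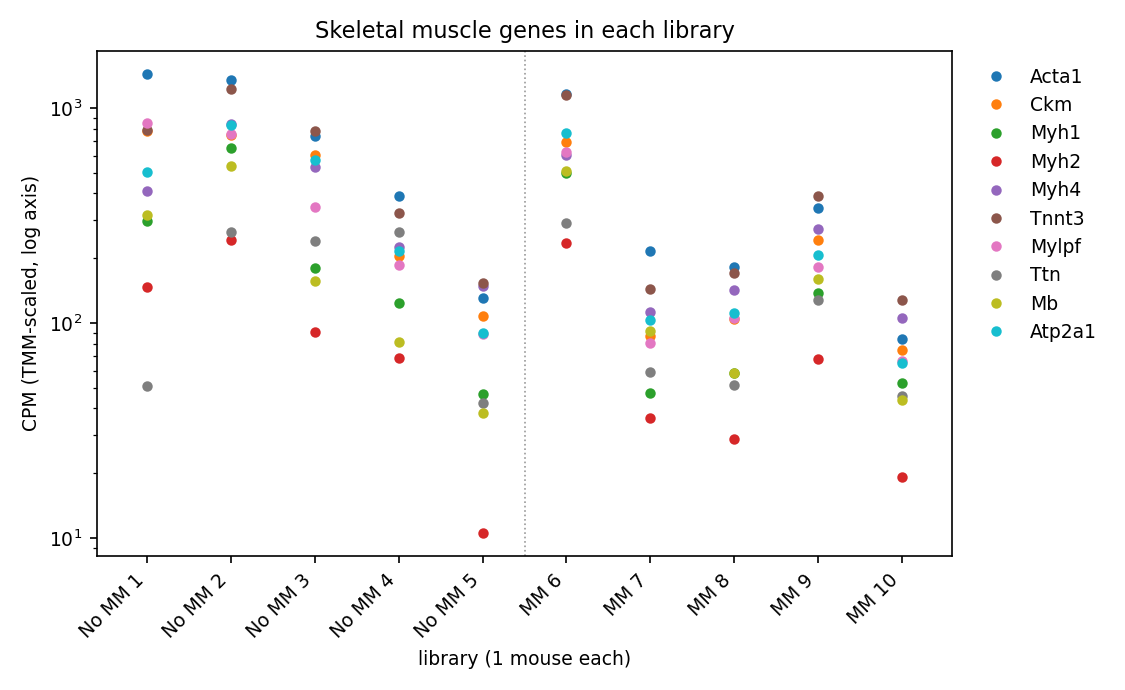
TMM-scaled CPM (log axis) of the 10 muscle genes in each of the 10 libraries, 5 No MM on the left and 5 MM on the right; each point is 1 gene in 1 mouse, and the libraries of a group have no order. The points shift together from library to library, with No MM 2 and MM 6 among the 4 highest for 10 of 10 genes, and no gene separates the groups.

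Every one of the 10 genes had a lower fitted level in MM than in No MM, and none passed the test. With edgeR's quasi-likelihood test, 0 of the 10 and 0 of the 16186 genes tested (0.0%) had an adjusted p under 0.05. At an unadjusted p under 0.05, the lower direction held 1664 genes (10.3%) and none of the 10, and the higher direction held 617 genes (3.81%) and none of the 10. Scaling by total counts alone moved the median log2 fold change of all genes from -0.03 to 0.30. It turned the split at that limit to 2128 higher and 449 lower, and all 10 genes stayed below 0. The median of the 10 genes less that of all genes was -0.74 under either scaling. A change of scaling shifts all genes by a like amount, so this equality was largely fixed in advance and is no check of the direction. The log2 fold changes (MM minus No MM) had a median of -0.76 over the 10 genes and of -0.03 over all genes tested. Mylpf had the most negative value, -1.07 (SE 0.74, adjusted p = 0.51), followed by Acta1 at -1.03 (SE 0.76, adjusted p = 0.54) and Ckm at -1.02 (SE 0.72, adjusted p = 0.52). Mb had the value nearest 0, -0.39 (SE 0.79, adjusted p = 0.85). The 95% intervals were wide: for Acta1 the interval ran from -2.70 to 0.64 and for Mb from -2.13 to 1.36, so both intervals held falls and rises. In exact two-sided permutation tests over the mice, p lay between 0.183 (Ckm) and 0.667 (Mb), where the smallest p that 5 against 5 mice can give is 0.00794. The levels of the 2 groups overlapped for 10 of 10 genes, and of all genes tested 228 (1.41%) had groups that did not overlap. The 10 genes moved together between libraries, so that they share a direction is not 10 separate observations.

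The spread within the groups set these intervals. The within-group SD of log2 CPM had a median of 1.33 over the 10 genes (1.03 for Myh4 to 1.57 for Myh2) against 0.49 over all genes tested, and 12.6% of all genes tested exceeded the SD of Myh4. DESeq2 called 207 of 17638 genes (1.17%) at an adjusted p under 0.05 and none of the 10, whose smallest adjusted p there was 0.463. In bulk libraries, fewer muscle cells and less muscle RNA per cell cannot be told apart.

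**Figure D2:**
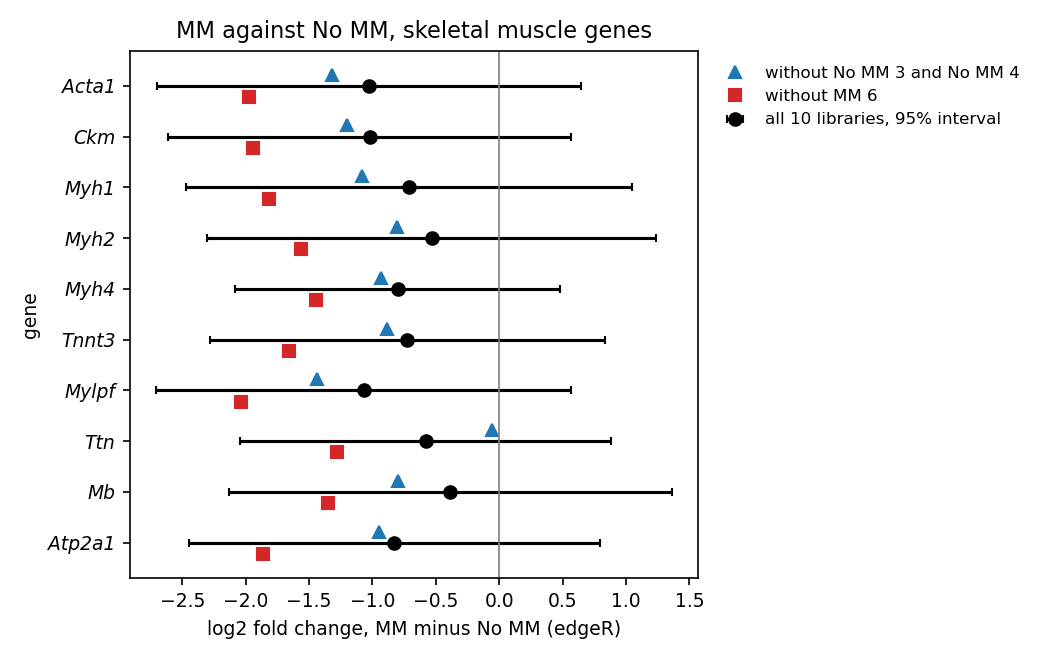
Log2 fold change (MM minus No MM) of each of the 10 genes from edgeR, with its 95% interval as a bar for the fit of all 10 libraries, and the values without No MM 3 and No MM 4 (triangles) and without MM 6 (squares). All intervals of the fit of all libraries cross 0, and the squares lie lowest, between -2.04 and -1.28.

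Single libraries moved the size of the difference, in both directions. MM 6 carried 6533 CPM over the 10 genes, against 684 to 2131 CPM in the other 4 MM libraries and 856 to 7435 CPM in No MM. With MM 6 left out, the 10 genes had a median of -1.74 on the log2 scale, from -2.04 for Mylpf to -1.28 for Ttn, and 7 of the 10 had an unadjusted p under 0.05, all except Mb, Myh2 and Ttn. The lower direction then held 1740 of the 16364 genes tested (10.6%), and none of the 10 passed after adjustment (lowest adjusted p = 0.304). MM 6 was the highest MM library for each of the 10 genes, so leaving it out had to lower their MM levels. These calls are therefore no check of the direction, and the 10 genes move together. Without No MM 2, the No MM library with the most muscle counts, the median was -0.40, Myh1 and Myh2 were at -0.04 each and Mb turned to 0.20. Without the immunoglobulin-rich libraries No MM 3 and No MM 4 the median was -0.94, and Ttn moved to -0.06. None of the 10 had an unadjusted p under 0.05 in that fit, where 560 of 16600 genes (3.37%) were lower and 417 (2.51%) higher at that limit.

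Because the total amount of muscle RNA varied so widely, the make-up of the muscle signal was compared as shares within each library, which do not depend on the amount. Among the 4 myosin heavy chains of adult limb muscle, Myh4 took the largest share of counts per kb in 10 of 10 libraries, 54.5% ± 10.9 (SD, n = 5) in No MM and 53.2% ± 6.96 (n = 5) in MM. Myh1 took 27.6% ± 7.17 in No MM and 27.4% ± 6.10 in MM, and Myh2 took 11.9% ± 4.46 and 13.7% ± 2.63. Slow Myh7 took 5.94% ± 5.81 in No MM and 5.69% ± 6.77 in MM. The differences between the groups (MM minus No MM) were -1.29, -0.240, 1.78 and -0.246 percentage points for Myh4, Myh1, Myh2 and Myh7, with exact two-sided permutation p of 0.794, 0.952, 0.476 and 0.952 (Benjamini-Hochberg adjusted p = 0.952 for each of the 4). Without No MM 3 and No MM 4 the difference for Myh7 turned to 3.84 percentage points. Without MM 6 the differences for Myh4 and Myh7 turned to 0.841 and 0.774 percentage points. The type IIb chain was thus the leading myosin in both groups, and no difference in the make-up of the myosins was detectable with 5 mice a group.

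**Figure D3:**
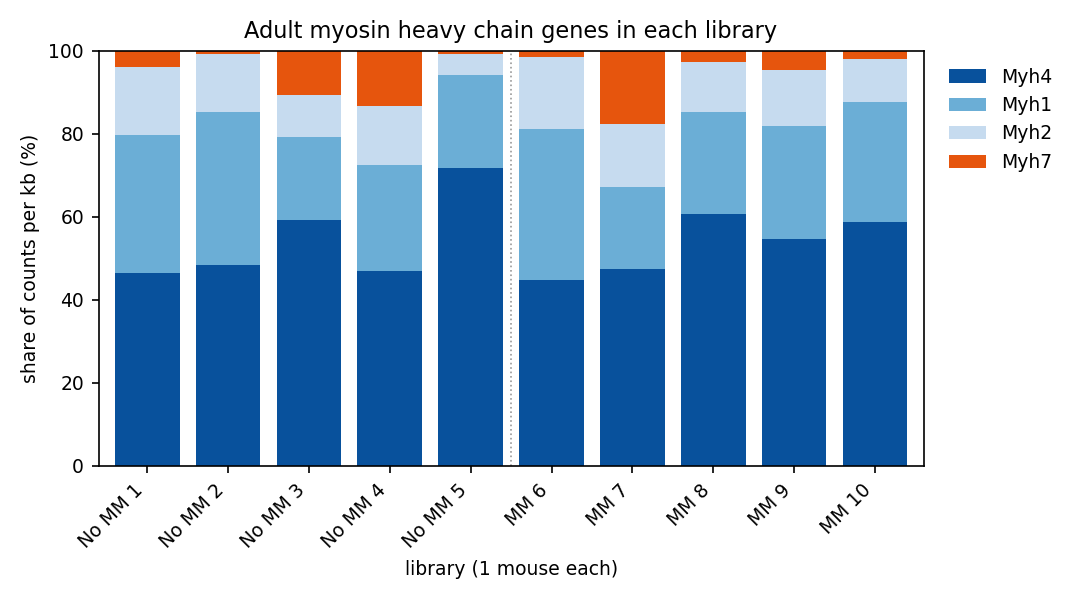
Share of each of 4 myosin heavy chain genes (%, of their summed counts per kb) in each library, as stacked bars from 0 to 100. Myh4 is the largest part of every bar, and Myh7 is widest in MM 7 at 17.6%.

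As a ratio between libraries, the share of slow Myh7 varied more widely than that of any fast chain, 23.7-fold. Myh7 was at 35.9, 15.9, 99.6, 66.5 and 1.59 CPM in No MM 1 to 5 and at 22.5, 43.1, 6.45, 23.6 and 3.69 CPM in MM 6 to 10, an order unlike that of the fast genes. It took 17.6% of the myosin counts per kb in MM 7, 13.4% in No MM 4 and 10.8% in No MM 3, and 0.745 to 4.58% in the other 7 libraries. For each troponin subunit too, the slow share was high in MM 7 and No MM 4. Slow Tnnt1 made up 19.5% of Tnnt1 plus Tnnt3 in MM 7 and 12.4% in No MM 4, against 1.6% in MM 6 and 1.67% in No MM 2. Slow Tnni1 made up 8.97% of Tnni1 plus Tnni2 in MM 7 and 5.61% in No MM 4, and 0.616 and 0.375% in MM 6 and No MM 2. Slow Tnnc1 made up 19.4% of Tnnc1 plus Tnnc2 in MM 7 and 16.4% in No MM 4, and 2.17 and 1.6% in MM 6 and No MM 2. MM 7 had the highest slow share in all 4 pairs. Low shares of Tnni1 and Myh7 were found in libraries with much muscle RNA (No MM 2 and MM 6) and with little. No MM 5 was lowest for Tnni1 at 0.328% and for Myh7, and MM 10 was at 1.02% for Tnni1 and 1.98% for Myh7. The pairs did not agree for these 2 libraries, where the share of Tnnt1 was 5.37% in No MM 5 and 8.70% in MM 10.

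**Figure D4:**
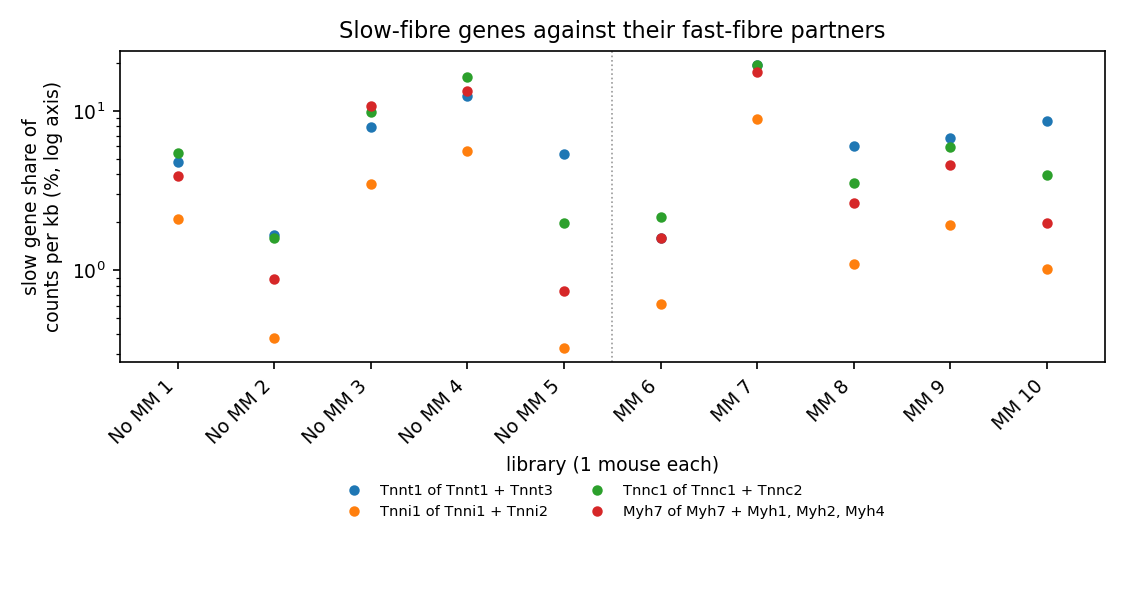
Share (%, log axis) of the slow-fibre gene in each of 4 slow and fast pairs, in counts per kb, for each library; each point is 1 pair in 1 mouse, and the libraries of a group have no order. MM 7 is highest for all 4 pairs, at 17.6% for Myh7 and 19.5% for Tnnt1.

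Titin departed from the other 9 genes, and so did Neb, another long muscle transcript. Per 100 counts per kb of Acta1, Ttn had 0.0475 in No MM 1 and 0.262, 0.436, 0.908 and 0.433 in No MM 2 to 5, and 0.338, 0.366, 0.378, 0.50 and 0.729 in MM 6 to 10. Neb, which encodes nebulin, the ruler of the thin filament, had 0.0988 in No MM 1 and 0.508 to 1.98 in the other libraries. No MM 1, the highest library for Acta1, was thus lowest for both long muscle transcripts relative to Acta1. The same library was lowest for long transcripts of other genes: the median log2 level of 287 other genes of 10 kb or more, less that of 4808 genes under 2 kb and centred over libraries, was -0.83 in No MM 1, -0.14 to 0.25 in No MM 2 to 5 and 0.06 to 0.37 in MM 6 to 10. In the other libraries the Ttn ratio and the long-minus-short value did not always go together. No MM 4 had the highest Ttn ratio, 0.908, with a long-minus-short value of -0.09, and MM 6 had 0.338 with 0.31. MM 10 was high for both, at 0.729 and 0.37. The part of this length difference in the level of Ttn was not tested.

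**Figure D5:**
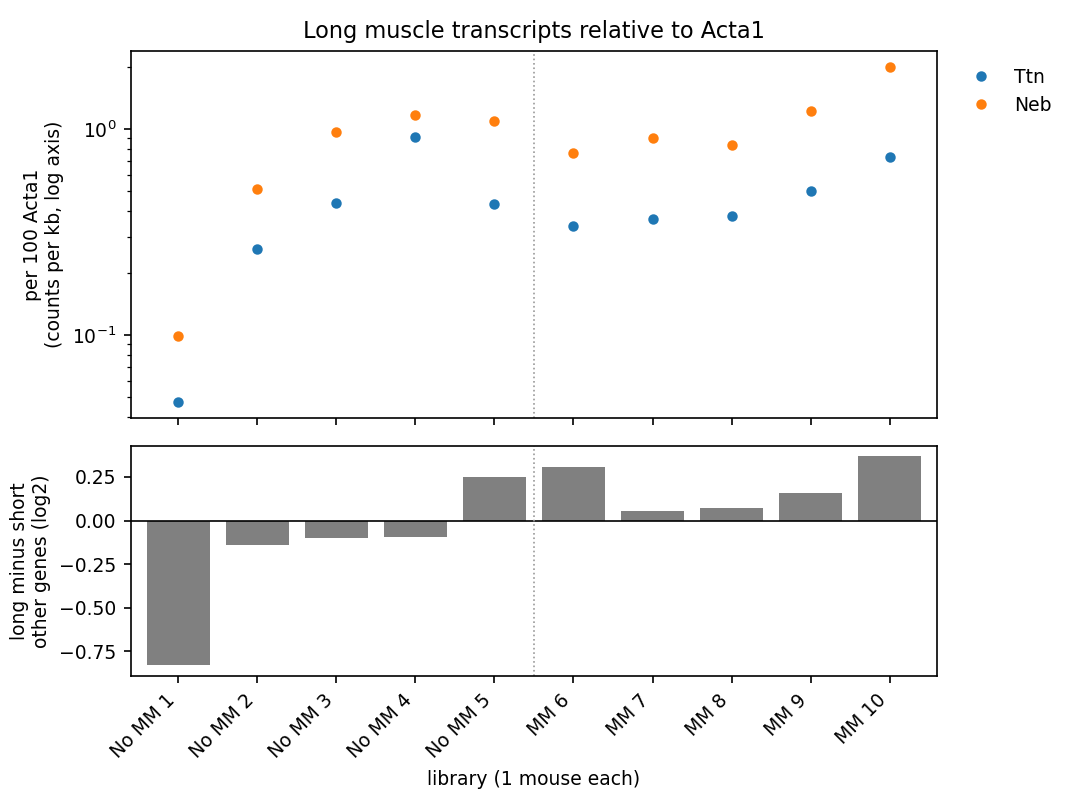
Upper panel, counts per kb of Ttn and Neb per 100 of Acta1 (log axis) in each library, 1 point per gene and mouse; lower panel, log2 level of other long genes less that of short genes in the same libraries (bars from 0). No MM 1 is lowest in both panels, with Ttn at 0.0475 and the long-minus-short value at -0.83.

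Other genes of muscle were taken from lists by role, and were described by counts in the same test. None of the genes of the fast fibre, slow fibre, sarcomere, calcium-handling and muscle energy lists passed after adjustment, and none of these 61 genes had an unadjusted p under 0.05, though 58 had a value below 0, as did 8522 of all 16186 genes tested. These genes vary together with the 10 and with each other, so the 58 are not separate observations. In the fast fibre list 9 of 9 were below 0 (median -0.67); Tnnc2, fast troponin C, was at 328 ± 231 CPM in No MM and 206 ± 226 CPM in MM (log2 fold change -0.68, SE 0.72, adjusted p = 0.68), whereas Tpm1, a tropomyosin that many cell types make, was at -0.11 (SE 0.48, adjusted p = 0.93). In the sarcomere and Z disc list 15 of 16 were below 0 (median -0.58); Tcap, the titin cap, was at -0.66 (SE 0.71, adjusted p = 0.68) and Tpm2, a tropomyosin, at -0.63 (SE 0.58, adjusted p = 0.63). In the calcium-handling list 12 of 12 were below 0 (median -0.52), with Jsrp1, a protein of the sarcoplasmic reticulum junction, at -0.84 (SE 0.69, adjusted p = 0.59) and Hrc, a calcium-binding protein of its lumen, at -0.40 (SE 0.63, adjusted p = 0.79). In the energy list 13 of 14 were below 0 (median -0.42), with the muscle enolase Eno3 at -0.84 (SE 0.64, adjusted p = 0.55) and the mitochondrial ATP carrier Slc25a4 at -0.42 (SE 0.39, adjusted p = 0.63). In the slow fibre list 9 of 10 were below 0 (median -0.91), with Myh7 at -1.14 (SE 0.89, adjusted p = 0.56; 0.13 without No MM 3 and No MM 4, adjusted p = 0.97), Myl2, the slow and cardiac light chain, at -0.78 (SE 0.74, adjusted p = 0.64) and the widely expressed tropomyosin Tpm3 at 0.09 (SE 0.21, adjusted p = 0.86; -0.04 without No MM 3 and No MM 4). A count was added after MM 6 was seen to be high for muscle genes, and was made without that library. At an unadjusted p under 0.05, 7 fast fibre, 10 sarcomere, 9 calcium-handling, 9 energy and 0 slow fibre genes were then lower. Of all genes tested, 10.6% had that call, and none of the list genes passed after adjustment (lowest adjusted p = 0.304). Leaving out a library because it is high for muscle genes largely fixes lower values for such genes in advance. These counts are therefore no check of the direction, and the share of all genes is not a like comparison.

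Of the regulators that build muscle, Pax7, Pax3 and Myf5 were near the limit of detection, and Myod1, Myog and Myf6 were low but counted. Pax7, the transcription factor of muscle stem cells, had 0 to 15 counts per library, at or under 3 counts in 6 of 10 libraries. Pax3 had 3 counts or fewer in 7 of 10 libraries and Myf5 in 9 of 10. Myod1, a myogenic master factor, had 3 to 64 counts in No MM and 8 to 65 in MM, and Myog, myogenin, had 0 to 39 and 1 to 32. Myf6, the factor of mature fibres, was the most abundant of them at 0.294 to 5.62 CPM. Of the 11 genes of this list 5 could be tested, and all 5 were below 0 (median -0.76), none with an unadjusted p under 0.05; Myf6 was at -0.76 (SE 0.80, adjusted p = 0.67) and Cdh15, M-cadherin, at -0.31 (SE 0.57, adjusted p = 0.82). Cdh15 did not follow the 10 genes (r = 0.17 with their mean profile) and was at 42.6 CPM in No MM 5, the No MM library with the least muscle counts. The myosins of developing muscle were low: Myh3 at 0.196 to 2.65 CPM, below Myh4 per kb by a median of 331-fold, and Myh8 at 0.0473 to 0.762 CPM.

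Genes of heart muscle were low beside those of skeletal muscle, and smooth muscle genes were present at intermediate levels. Actc1, cardiac actin, was at 0.0709 to 6.48 CPM, and Acta1 exceeded it per kb by a median of 803-fold. Of the 9 heart genes 5 were tested and none had an unadjusted p under 0.05 (median -0.54), with Actc1 at -1.85 (SE 1.08, adjusted p = 0.45), Tnni3, cardiac troponin I, at -0.83 (SE 0.84, adjusted p = 0.66) and Myl4 at -0.28 (SE 0.45, adjusted p = 0.80). Tnni3 was at 9.18 and 12.6 CPM in No MM 3 and No MM 4, at 0.305 to 1.91 CPM in the other No MM libraries and at 1.98 to 3.36 CPM in MM, and without those 2 libraries its value turned to 1.53 (adjusted p = 0.64). Nppa, the atrial natriuretic peptide gene, had 0 counts in 8 libraries and 1 in each of the others. Smooth muscle Acta2 was present at 10.2 to 126.3 CPM, and Acta1 exceeded it by a median of 13.3-fold. None of the 7 smooth muscle genes tested had an unadjusted p under 0.05 (median -0.40), with Acta2 at -1.02 (SE 0.50, adjusted p = 0.38) and Tagln, transgelin, at -0.76 (SE 0.47, adjusted p = 0.47).

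The 10 genes varied together across libraries. Over the 10 libraries, Pearson's r between log2 levels had a median of 0.943 over the 45 pairs of genes and was lowest between Mylpf and Ttn at 0.589. The libraries share a preparation and 2 groups, so these are descriptions. The genes most like the mean profile of the 10 were Jsrp1 (r = 0.996), the ribosomal protein gene Rpl3l of striated muscle (0.996), fast troponin I Tnni2 (0.992), Eno3 (0.991), Tnnc2 (0.989), Fitm1 (0.988), Sypl2 (0.986), Nmrk2 (0.985), Cox8b (0.985) and Trim54 (0.985). Of the 16176 other genes tested, 159 had r above 0.9, of which 38 were on the lists used here, and 1 had r below -0.9. The median r was 0.956 for the fast fibre list, 0.95 for energy, 0.946 for the sarcomere, 0.941 for calcium handling, 0.775 for myogenic factors, 0.670 for the slow fibre list and 0.583 for heart muscle.

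By list median, genes of other cells around bone followed the muscle genes less closely than the fast fibre, energy, sarcomere and calcium-handling lists did. The smooth muscle list, at 0.60, was above the heart muscle list, at 0.583. The median r with the muscle profile was 0.181 for the 8 osteocyte genes (from -0.232 to 0.353), -0.037 for osteoblast, 0.322 for cartilage, 0.431 for adipocyte, 0.404 for tendon, 0.60 for smooth muscle, 0.325 for nerve, -0.051 for erythroid, -0.071 for B and plasma cell and -0.378 for neutrophil genes. Tendon genes were highest in the libraries with the most muscle: their summed level was 252 CPM in No MM 2, 192 CPM in MM 6 and 123 CPM in No MM 1, and 28.6 to 104 CPM in the other 7. Of the 6 tendon genes, Thbs4, a matrix protein of tendon and muscle, had r = 0.85, Fmod, fibromodulin, 0.71, Tnmd 0.49 and Kera 0.32, whereas the tendon transcription factors Mkx and Scx had 0.09 and -0.07. Adipocyte genes were also highest in MM 6 at 1071 CPM and No MM 2 at 865 CPM, against 149 to 621 CPM elsewhere. Neutrophil genes, by contrast, summed to 10080 CPM in MM 6 and to 22792 to 30554 CPM in the other 4 MM libraries, and in No MM they were lowest in No MM 3 and No MM 4, at 7079 and 8184 CPM against 24926 to 32698 CPM. The part of these differences in the muscle levels was not tested.

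The test of MM against No MM in those lists called no gene after adjustment. Osteocyte genes had a median log2 fold change of 0.15, with Dmp1 at 0.0016 (SE 0.62, adjusted p = 0.999) and Sost at -0.40 (SE 0.70, adjusted p = 0.81), and their sum ranged from 323 to 2518 CPM in No MM and from 405 to 1782 CPM in MM. The medians were 0.16 for osteoblast genes (Spp1 0.18, Col1a1 0.14), 0.05 for cartilage (Col2a1 -0.0039, Comp 0.01), -0.03 for nerve (Pmp22 -0.06, S100b 0.0041), 0.52 for adipocyte (Fabp4 0.41, Cfd 0.17), -0.10 for tendon (Fmod -0.28, Thbs4 -0.10), 0.19 for neutrophil (S100a9 0.35, S100a8 0.27) and -0.37 for erythroid genes (Hbb-bs -0.38, Hba-a1 -0.45). Several of these directions rested on No MM 3 and No MM 4: without them the median was -0.37 for osteocyte, -0.43 for osteoblast, -0.21 for cartilage, -0.34 for neutrophil, -0.19 for B and plasma cell and -0.0008 for adipocyte genes, and Dmp1 was at -0.57, Spp1 at -0.26, Col1a1 at -0.55, Comp at -0.48, S100b at -0.59, Cfd at -0.52, S100a9 at -0.15 and S100a8 at -0.23. Without MM 6 the median was -0.06 for osteocyte, -0.31 for osteoblast, -0.69 for cartilage and -0.08 for adipocyte genes, with Dmp1 at -0.48, Col1a1 at -0.27, Comp at -0.57, S100b at -0.49 and Cfd at -1.06. The only genes of these lists with an unadjusted p under 0.05 were the plasma cell genes Sdc1 (-1.97, SE 0.59, adjusted p = 0.31) and Tnfrsf17, both lower in MM, a list with a median of 0.51 (Cd79b -0.66). Sdc1 was at 550.0 and 646 CPM in the immunoglobulin-rich libraries No MM 3 and No MM 4 and at 35.7 to 149 CPM in the other 8, and without those libraries no gene of that list had an unadjusted p under 0.05 in the lower direction.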

How the data were processed

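Osteocyte RNA from 5 No MM and 5 MM mice was sequenced as stranded total RNA with 76-base paired reads; the submitters' notes name FastQC 0.11.5 and STAR, and the counter, genome build and annotation are not given in the sources used here. The authors deposited 1 table with raw read counts per gene, a signal (counts divided by a size factor) and FPKM for each library, and also log2 fold changes and p-values of their own comparison, which were not used. Tests used the counts. Of 22284 gene IDs found in GENCODE M21, 68.4% had the same position as in the deposited table. Positions of genes are those of the table.

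Genes were filtered with filterByExpr, scaled by TMM and tested, MM against No MM, with edgeR 4.0.16 in R 4.3.3 (quasi-likelihood test, Benjamini-Hochberg adjustment over all 16186 genes). Levels are TMM-scaled CPM, divided by the gene length of the table in kb where genes were compared. On simulated counts for this comparison, 67.5% of 200 genes changed by a log2 of 2 were called among 16186, with 8 false calls. None were called when no gene was changed. The changed genes were drawn at random from all genes tested. The 10 muscle genes spread more (median within-group SD of log2 CPM 1.33 against 0.49), so this rate does not apply to them. Single values were tested with exact two-sided permutation tests. Alternatives were DESeq2 1.42.0, other scalings and filters, and libraries left out. The 10 genes and the lists were chosen with earlier results of these data known. Genes named are these 10, the 2 of each list with the highest mean level per kb and the 10 most like their mean profile. Myh7, Pax7, Myod1, Myog, Actc1 and Igkv4-91 are named as well. Some others were named after their values were seen or as partners in a ratio. They are Tnni1, Tnni2, Tnnt1, Tnnc1, Neb, Nppa, Myf5, Pax3, Tnmd, Kera, Mkx, Scx and Tnfrsf17. Mymk, Nppb and Jchain were not analysed here. The labels name mice by number only, so p-values measure the spread between these libraries. Shares of counts and floors of 3 counts cover counting error only. The study describes its differential analysis as paired, but the labels give no pairing and none was used. No 2 libraries held identical counts.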

Additional observations from a re-analysis of the deposited data

Results flagged for a closer look

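The gap of the highest or lowest library was set against the range of its group in 30 sets of 5 values. The sets were each of the 10 genes, their sum and the myosin shares, by group. Dixon's 95% limit for this gap assumes independent, normally distributed values, for which about 1.5 of the 30 sets would pass it. The values here were unlogged CPM and shares of genes that move together, so 1.5 is not the chance rate here. Gaps on the log2 scale were not tested. The gap was past the limit in 10 sets. In 9 of them the library was MM 6: Acta1 was at 1159 CPM there against 83.9 to 344 CPM in the other 4 MM libraries, Ckm at 697 against 74.6 to 243, Myh1 at 497 against 47.3 to 137, Myh2 at 235 against 19.1 to 68.0, Tnnt3 at 1153 against 127 to 388, Mylpf at 625.5 against 66.5 to 181, Mb at 511 against 44.0 to 161, Atp2a1 at 760.4 against 64.9 to 208, and the sum of the 10 genes at 6533 against 684 to 2131 CPM. These 9 values come from 1 library and genes that move together, so they are 1 observation. Myh4 and Ttn were also highest in MM 6 within MM, with a gap inside the limit. The remaining set was the share of Myh7 among the 4 myosins, 17.6% in MM 7 against 1.61 to 4.58% in the other MM libraries. In the No MM group no value of these sets passed the limit.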

How the results depend on the processing

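No paired analysis was possible because the replicate numbers of the labels (1 to 5 in No MM, 6 to 10 in MM) are not shared between the groups. Under DESeq2, RLE, upper quartile and total-count scaling, no filter, a minimum of 10 counts and without immunoglobulin genes, the 10 genes stayed below 0 and none passed an adjusted p of 0.05; the median of the 10 ran from -0.77 to -0.44. DESeq2 called 31 genes higher and 176 lower where edgeR called none. Leaving out 1 mouse at a time, log2 fold changes ran from -1.97 to -0.72 (Acta1), -1.94 to -0.79 (Ckm), -1.81 to -0.04 (Myh1), -1.56 to -0.04 (Myh2), -1.45 to -0.42 (Myh4), -1.66 to -0.38 (Tnnt3), -2.04 to -0.70 (Mylpf), -1.28 to -0.36 (Ttn), -1.35 to 0.20 (Mb, positive without No MM 2) and -1.86 to -0.48 (Atp2a1). Differences in myosin share, in percentage points, ran from -3.31 to 3.01 (Myh4), -2.50 to 2.08 (Myh1), 0.064 to 2.91 (Myh2) and -3.23 to 1.61 (Myh7), and Myh7 was at 3.84 without No MM 3 and No MM 4. Chosen after seeing the data, the lists were counted again without MM 6, where genes lower at an unadjusted p under 0.05 were 7 fast fibre, 10 sarcomere, 9 calcium-handling, 9 energy, 2 myogenic, 1 heart and 1 smooth muscle gene, against 0 in each with all libraries; of all genes tested, 10.6% had that call. Without No MM 3 and No MM 4 they were 1 heart gene higher, 1 smooth muscle and 1 tendon gene lower, and 0 B and plasma cell genes lower, against 2 with all libraries; of all genes tested, 3.37% were then lower and 2.51% higher. The cause of these shifts was not tested. MM 6 was left out because it was high for muscle genes, so the muscle gene counts without it were largely fixed in advance. Regulators such as Pax7 were near the limit of detection, with 3 counts or fewer for Pax7 in 6 of 10 libraries.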
